A study of Mus musculus with 12 samples.

Results

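The mammalian Hox genes are homeobox transcription factor genes that lie in the Hoxa, Hoxb, Hoxc and Hoxd clusters. The rows of the count table whose symbol is Hox followed by a, b, c or d and a paralog number were taken, which gave 39 genes of the 55450 in the table. They comprised 11 Hoxa, 10 Hoxb, 9 Hoxc and 9 Hoxd genes. In the GENCODE M21 annotation of the GRCm38 build the Hoxa cluster lies on the minus strand of chromosome 6, and the outermost genes span chr11:96194316-96368256 for Hoxb, chr15:102921103-103036852 for Hoxc and chr2:74668310-74765142 for Hoxd, all on the plus strand. Total RNA was sequenced from the brains and livers of males 7 to 9 weeks old, either wild type (Vaultrc5+/+) or lacking the vault RNA gene Vaultrc5 (Vaultrc5-/-), with 3 libraries in each of the 4 groups. The titles call the control libraries flx while the genotype label reads wild type. Strain, the way the deletion was made and the dissection of the brain are not given in the sources used here. The labels name separate samples but do not say that each came from its own animal, so p-values measure the spread between these libraries.

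A Hox protein binds DNA through its homeodomain, usually together with a TALE cofactor of the Pbx, Meis or Pknox (Prep) type. Within a cluster the genes are ordered by paralog number. In the embryo, low-numbered genes start earlier and reach farther forward than high-numbered genes, which act towards the tail, a relation known as colinearity. In the central nervous system Hox RNA marks the hindbrain and spinal cord, and the forebrain and midbrain lie in front of its domain. Polycomb proteins keep the clusters silent outside these domains, and Trithorax proteins and retinoic acid act in their activation.

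The rounded counts summed to between 14844937 and 18567362 per library in brain and between 23247425 and 27155478 in liver. Levels are given as CPM (counts scaled to library size) on a scale set by TMM normalization over all 12 libraries, on which 3 counts equal 0.123 to 0.148 CPM in brain and 0.1495 to 0.169 CPM in liver. Against a group under 3 counts a fold is given as a lower bound or as a ratio with its counting interval, and the fitted values of the tests are no measured fold there. Vaultrc5 had 33, 39 and 48 counts in wild-type liver and 0 in the 3 knockout liver libraries, and 4, 1 and 4 counts in wild-type brain and 0 in the 3 knockout brain libraries. Alb, the serum albumin gene of hepatocytes, had 0 to 5 counts in brain and at least 714287 in liver, and Snap25, a synaptic gene, had at least 31003 counts in brain and at most 3 in liver. One library stood apart from the other 5 of its tissue in Hox counts, namely wild-type brain replicate 3, and the calls that rest on it are given with and without it. In bulk tissue, fewer cells of a type and less RNA per cell cannot be told apart.

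Hox RNA was low in 5 of the 6 brain libraries, present in every liver library and highest in wild-type brain replicate 3. The 39 genes together had 22.3, 2 and 1427 counts in wild-type brain replicates 1, 2 and 3 and 7, 11 and 22 counts in knockout brain. The wild-type livers held 156, 132 and 154 counts and the knockout livers 208, 170 and 139. As summed levels, wild-type brain replicate 3 reached 60.9 CPM, 61.3 times the highest of the other 5 brain libraries, which lay between 0.0820 and 0.993 CPM. The liver libraries lay between these extremes, at 6.58 to 10.9 CPM.

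**Figure D1:**
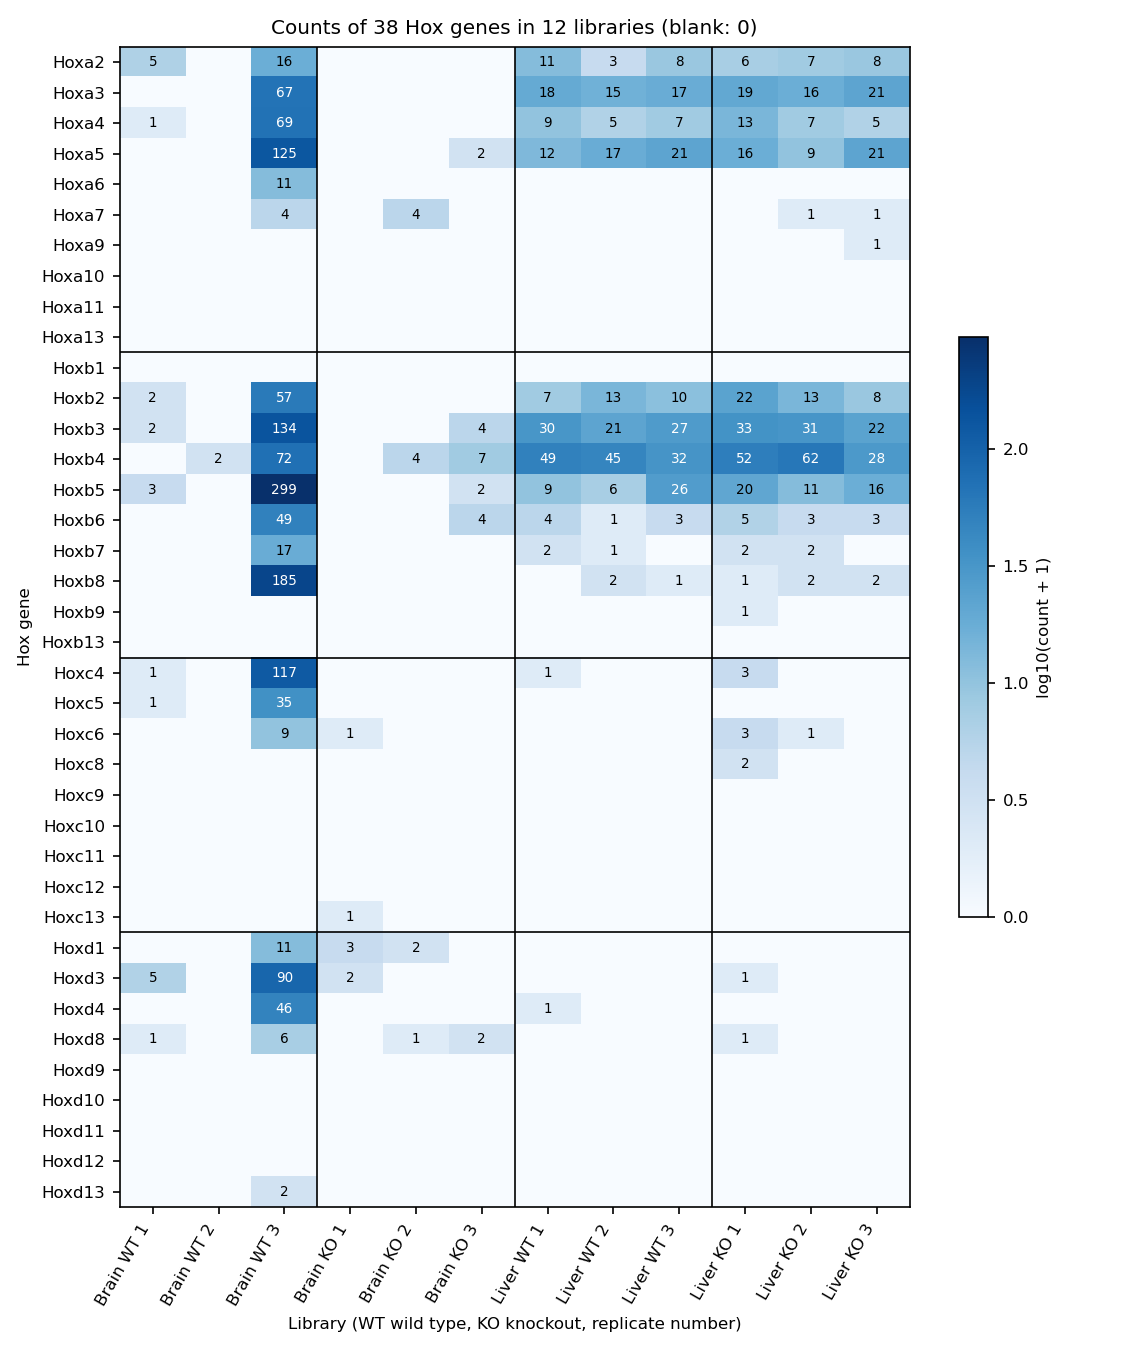
Counts of 38 of the 39 Hox genes (rows, by cluster and paralog number) in the 12 libraries (columns). Numbers in cells are counts rounded to whole numbers, colour is log10(count + 1), and blank cells are 0. Wild-type brain replicate 3 has the highest counts, up to 299 for Hoxb5, and the 6 liver libraries have counts mainly for Hoxa2 to Hoxa5 and Hoxb2 to Hoxb6.

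Of the 39 genes, 26 had a count in at least 1 library. The 13 genes with no count anywhere were Hoxa10, Hoxa11, Hoxa13, Hoxb1, Hoxb13, Hoxc9, Hoxc10, Hoxc11, Hoxc12, Hoxd9, Hoxd10, Hoxd11 and Hoxd12. All of these but Hoxb1 have a paralog number of 9 or above, the genes that pattern the posterior trunk and the limbs. Counts were present for 22 genes in wild-type brain replicate 3, for 21 genes in some liver library and for 17 genes in some library of the other 5 brain libraries. With at least 3 counts required in every library of a group, 8 genes were detected in wild-type liver, 10 in knockout liver and 0 in either brain group.

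Hoxb contributed the most counts in wild-type brain replicate 3 and in each liver library. Hoxb genes summed to 7, 2 and 813 counts in wild-type brain, 0, 4 and 17 in knockout brain, 101, 89 and 99 in wild-type liver and 136, 124 and 79 in knockout liver. Hoxa genes summed to 7.30, 0 and 297 counts in wild-type brain, 0, 4 and 3 in knockout brain, 53, 43 and 55 in wild-type liver and 62, 45 and 60 in knockout liver. Both clusters had their highest sum in wild-type brain replicate 3, and in both the liver libraries lay above the other 5 brain libraries.

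The Hoxc and Hoxd clusters were nearly empty in liver. Hoxc genes summed to 2, 0 and 161 counts in wild-type brain, 2, 0 and 0 in knockout brain, 1, 0 and 0 in wild-type liver and 8, 1 and 0 in knockout liver. Hoxd genes summed to 6, 0 and 156 counts in wild-type brain, 5, 3 and 2 in knockout brain, 1, 0 and 0 in wild-type liver and 2, 0 and 0 in knockout liver. For these clusters 1 library of the 12, wild-type brain replicate 3, held more than 8 counts. As shares of the 1427 Hox counts of that library, Hoxa had 20.8%, Hoxb 57.0%, Hoxc 11.3% (95% exact Clopper-Pearson interval 9.687% to 13.04%) and Hoxd 10.9% (9.36% to 12.7%). Of the 959 Hox counts of the 6 liver libraries, Hoxa had 33.2%, Hoxb 65.5%, Hoxc 1.04% (0.501% to 1.91%) and Hoxd 0.313% (0.0646% to 0.911%). These intervals cover counting error only, because the reads carry no molecular identifiers and several may stem from 1 molecule.

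**Figure D2:**
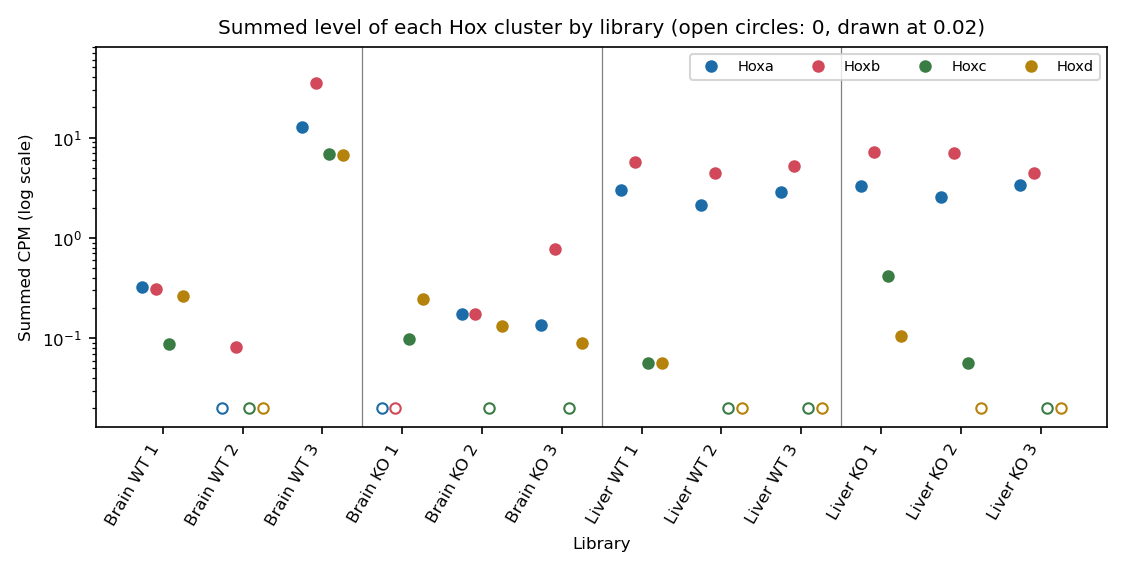
Summed CPM of each Hox cluster (colours, log axis) in each of the 12 libraries; open circles are sums of 0, drawn at the lower edge. Hoxc and Hoxd are above 1 CPM in wild-type brain replicate 3 alone, at 6.87 and 6.64 CPM, whereas Hoxa and Hoxb are above 1 CPM there and in all 6 liver libraries.

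Hoxb8, Hoxb4 and Hoxb1, genes of 1 cluster of 173.9 kb, showed the range of patterns, and their start regions are therefore set side by side. Hoxb8 (ENSMUSG00000056648.5) had 185 counts in wild-type brain replicate 3, 0 in the other 5 brain libraries and 0 to 2 in liver. Hoxb4 (ENSMUSG00000038692.8) had 72 counts in that brain library and 28 to 62 in every liver library. Hoxb1 had 0 counts in all 12 libraries. The 250 bases before the annotated start of each gene, from RefSeq on GRCm38.p6 and read 5′ to 3′ on the plus strand, lie at chr11:96281655-96281904 for Hoxb8, chr11:96318017-96318266 for Hoxb4 and chr11:96365508-96365757 for Hoxb1. Capitals mark matches, on either strand, to the letters TATAAA of the TATA box, to the box known as CCAAT, to the letters TGATNNAT known from Hox-Pbx composite sites and to CACGTG, which is one form of the E-box. Matches to different motifs may overlap.
Hoxb8: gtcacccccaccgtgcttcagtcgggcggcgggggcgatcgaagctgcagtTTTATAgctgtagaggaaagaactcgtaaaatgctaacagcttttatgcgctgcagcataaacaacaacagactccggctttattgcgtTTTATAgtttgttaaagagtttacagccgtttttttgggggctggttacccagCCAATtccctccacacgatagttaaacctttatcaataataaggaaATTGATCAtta
Hoxb4: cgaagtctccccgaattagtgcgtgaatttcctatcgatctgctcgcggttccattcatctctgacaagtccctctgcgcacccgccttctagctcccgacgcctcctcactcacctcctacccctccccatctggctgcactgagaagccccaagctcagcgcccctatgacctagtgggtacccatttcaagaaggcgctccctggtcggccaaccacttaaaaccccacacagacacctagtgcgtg
Hoxb1: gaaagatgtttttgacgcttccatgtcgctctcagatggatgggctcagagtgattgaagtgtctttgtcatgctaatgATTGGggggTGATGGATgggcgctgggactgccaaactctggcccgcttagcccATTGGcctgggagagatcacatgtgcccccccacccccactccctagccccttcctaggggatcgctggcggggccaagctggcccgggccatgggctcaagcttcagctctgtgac
The Hoxb8 window held the TATA, CCAAT and Hox-Pbx letters, the Hoxb1 window held CCAAT and the Hox-Pbx letters, and the Hoxb4 window held none of the searched letters. RefSeq windows were matched for 22 of the 39 genes, in 24 windows. The TATA letters were found in 4 of these genes, CCAAT in 14, the Hox-Pbx letters in 4 and CACGTG in 4. Of all 32851 windows of this length, 12.4% held the TATA letters, 33.9% CCAAT, 7.68% the Hox-Pbx letters and 6.02% CACGTG. The median GC content was 58.6% over the 24 Hox windows and 52.4% over all windows, and the median number of CpG dinucleotides was 12.5 and 6. A match is a description of the letters and not a binding site.

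In wild-type brain replicate 3 the 5 highest genes per exon length were of paralog groups 4, 5 and 8. Hoxb5 (ENSMUSG00000038700.4) had 3, 0 and 299 counts in wild-type brain, 0, 0 and 2 in knockout brain, 9, 6 and 26 in wild-type liver and 20, 11 and 16 in knockout liver. Its level in wild-type brain replicate 3 was 12.8 CPM, which was 86.2 times the highest other brain library with that library set at no less than 3 counts. Hoxa5, which acts in the cervical spinal cord and the lung, had 0, 0 and 125 counts in wild-type brain, 0, 0 and 2 in knockout brain, 12, 17 and 21 in wild-type liver and 16, 9 and 21 in knockout liver. For both genes the liver libraries lay between the other 5 brain libraries and wild-type brain replicate 3, without overlap.

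Hoxc4, the first gene of the Hoxc cluster in number, had 1, 0 and 117 counts in wild-type brain, 0 in each knockout brain library, 1, 0 and 0 in wild-type liver and 3, 0 and 0 in knockout liver. Hoxd3 had 5, 0 and 90.1 counts in wild-type brain, 2, 0 and 0 in knockout brain, 0 in each wild-type liver library and 1, 0 and 0 in knockout liver. The reads of these genes were thus almost all in 1 of the 12 libraries. Hoxd4 had 46.5 counts there, and it and Hoxd3 share exon sequence with each other and with the gene model Gm28230, which covers 53.1% of the Hoxd3 and 39.1% of the Hoxd4 exon bases on the same strand. Fractional counts were found in 4 of the 39 genes (Hoxa2, Hoxa3, Hoxd3 and Hoxd4), so the division of reads between them and overlapping models is uncertain.

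With at least 10 counts in wild-type brain replicate 3 and 0 to 3 counts in every liver library there were 8 genes, Hoxa6, Hoxb7, Hoxb8, Hoxc4, Hoxc5, Hoxd1, Hoxd3 and Hoxd4. This choice was made after the values were seen. Hoxc5 had 35 counts there, Hoxb7 17, Hoxa6 11 and Hoxd1 11. As ratios of summed counts per library size, against the 6 liver libraries together, the level in that brain library was 110-fold higher for Hoxb8 (95% counting interval 54.7 to 259) and 139-fold higher for Hoxc4 (53.0 to 520). For Hoxb4 the same ratio was 1.28 (0.972 to 1.66), and Hoxa2 had a ratio of 1.77 (0.932 to 3.21). For Hoxb2 the ratio was 3.72, for Hoxb3 3.89 and for Hoxa3 3.01. The ratios moved with the scaling, and with library totals they were 2.37 for Hoxb4, 3.28 for Hoxa2 and 204 for Hoxb8.

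The remaining genes with counts in wild-type brain replicate 3 included Hoxb6 with 49 counts, Hoxc6 with 9, Hoxd8 with 6, Hoxa7 with 4 and Hoxd13 with 2. Of the 26 genes with counts in any library, 19 had their highest CPM there. The share of all genes with their highest CPM in wild-type brain replicate 3 was not computed. The 4 genes with counts only outside it, each of them at 2 or fewer per library, were Hoxa9 and Hoxb9 (1 count each, knockout liver), Hoxc8 (2 counts, knockout liver replicate 1) and Hoxc13 (1 count, knockout brain replicate 1).

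In liver the Hox RNA was that of 8 genes with at least 3 counts in all 6 libraries, Hoxa2, Hoxa3, Hoxa4, Hoxa5, Hoxb2, Hoxb3, Hoxb4 and Hoxb5. Hoxb4, known for its part in blood stem cell expansion, had 49, 45 and 32 counts in wild-type liver, 52, 62 and 28 in knockout liver, 0, 2 and 72 in wild-type brain and 0, 4 and 7 in knockout brain. Hoxb3 had 30, 21 and 27 counts in wild-type liver, 33, 31 and 22 in knockout liver, 2, 0 and 134 in wild-type brain and 0, 0 and 4 in knockout brain. For both, the genotypes overlapped in liver, and the other 5 brain libraries lay below every liver library. The exons of Hoxb3 are covered to 52.9% by the antisense gene Hoxb3os. The library kit keeps strand, but the use of strand in counting is not given in the sources used here, so the reads of this pair may not be separated.

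Hoxa3 had 18, 15 and 17 counts in wild-type liver and 19, 16 and 21 in knockout liver, with 0, 0 and 67 in wild-type brain and 0 in each knockout brain library. Hoxa4 had 9, 5 and 7 counts in wild-type liver, 13, 7 and 5 in knockout liver, 1, 0 and 69 in wild-type brain and 0 in each knockout brain library. Hoxb2, a hindbrain gene of the embryo, had 7, 13 and 10 counts in wild-type liver, 22, 13 and 8 in knockout liver, 2, 0 and 57 in wild-type brain and 0 in each knockout brain library. These 3 genes repeat the order of liver below wild-type brain replicate 3 and above the other 5 brain libraries.

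Per exon length, the order of levels differed between liver and wild-type brain replicate 3. In liver, Hoxb4 led with 0.940 ± 0.285 CPM per kb of exon (SD, n = 6), followed by Hoxa5 with 0.457 ± 0.134, Hoxb3 with 0.348 ± 0.0692, Hoxb5 with 0.283 ± 0.140 and Hoxa4 with 0.259 ± 0.101. The lowest Hoxb4 library, at 0.612 CPM per kb, overlapped the highest Hoxa5 library, at 0.627, and from Hoxa5 down to Hoxa3, at 0.159 ± 0.0241, each gene overlapped its neighbour in the order. In wild-type brain replicate 3, Hoxb5 led with 4.58 CPM per kb, followed by Hoxb8 with 3, Hoxa5 with 2.84, Hoxc4 with 1.95, Hoxa4 with 1.85, Hoxb3 with 1.35 and Hoxb4 with 1.20. Hoxb8, second in that library, had 0.0272 ± 0.0170 CPM per kb in liver and was twelfth there.

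**Figure D3:**
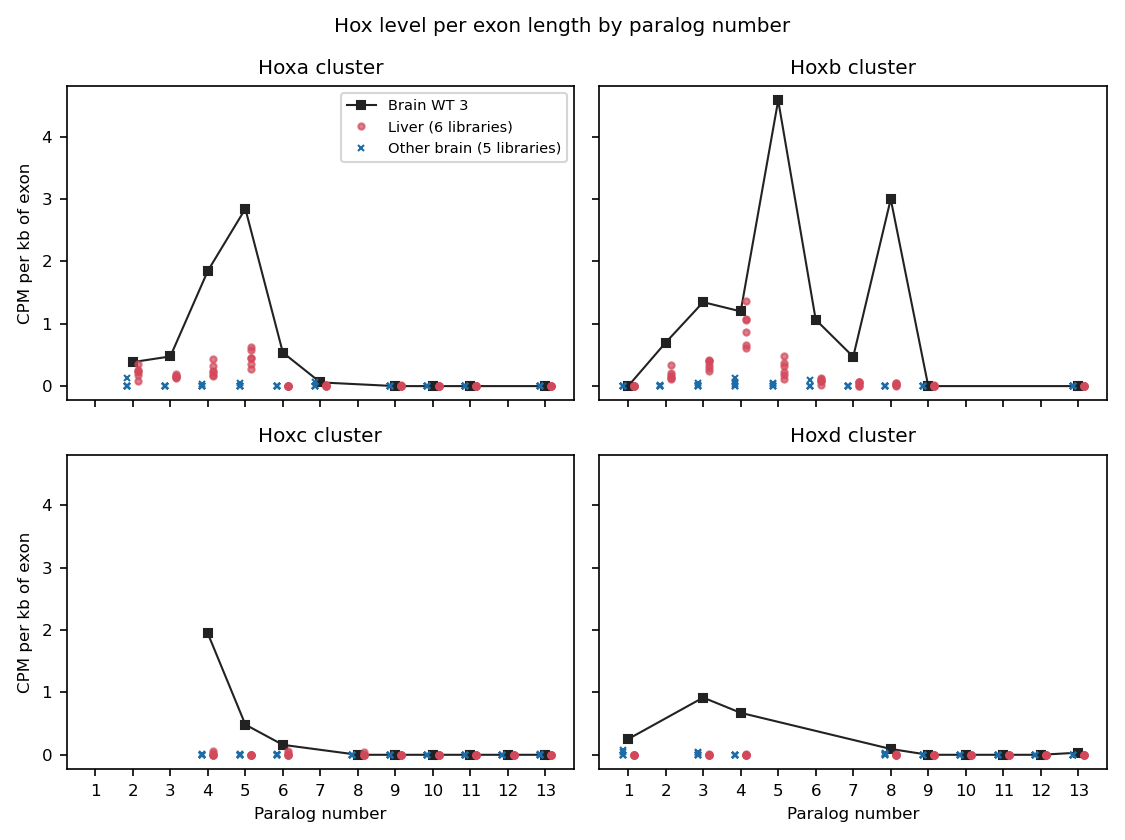
Level per kb of exon (CPM per kb) against paralog number in each Hox cluster, for 38 of the 39 genes, in wild-type brain replicate 3 (black squares, line), the 6 liver libraries (red points) and the other 5 brain libraries (blue crosses). In Hoxb the brain library peaks at paralogs 5 and 8, with 4.58 and 3.00 CPM per kb, and liver peaks at paralog 4, with a mean of 0.940.

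By paralog group, counts lay towards the low-numbered end in both tissues. Paralogs 1 to 5 held 95.3% of the liver Hox counts (95% exact Clopper-Pearson interval 93.8% to 96.6%) and 80.2% of those of wild-type brain replicate 3 (78.0% to 82.2%). Paralogs 6 to 8 held 4.48% (3.26% to 5.99%) in liver and 19.7% (17.7% to 21.9%) in that brain library. Paralogs 9 to 13 held 2 of 959 counts in liver, or 0.209% (0.0253% to 0.751%), and 2 of 1427 in that brain library, or 0.140% (0.0170% to 0.505%). In the other 5 brain libraries, 64 counts in all, paralogs 1 to 5 held 78.1% (66.0% to 87.5%) and paralogs 6 to 8 held 20.3% (11.3% to 32.2%).

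Other genes were also searched for high levels in wild-type brain replicate 3. The rule sought only higher levels and was not applied to the other libraries, so its direction was set in advance. Of 15357 genes with at least 30 counts in that library, 21 were at least 10 times the highest other brain library, with that library set at no less than 3 counts, and 12 of these 21 were Hox genes. Hoxb4 was the 1 of the 13 Hox genes with at least 30 counts there that was not among them. The other 9, seen after the values were known, were Pou4f1, Slc6a4 (the serotonin transporter), Arhgap36, Glra1 (a glycine receptor subunit), Sncg, Pax8, Slc18a3 (the vesicular acetylcholine transporter), Tbx20 and Prph (peripherin). A list of 9 markers of brainstem neurons summed to 18, 1.27 and 162 CPM in wild-type brain and 11.7, 1.37 and 6.23 CPM in knockout brain. All 9 were highest in wild-type brain replicate 3 and none of them was at 0 there. Slc6a5, the glycine transporter, made the largest contribution with 98.2 CPM in that library, followed by Glra1 with 50.2 CPM.

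Other brain marker lists did not have their maximum in that library. The 7 cerebellar markers summed to 1499, 22.9 and 339 CPM in wild-type brain and 1394, 25.6 and 579 CPM in knockout brain. The 7 forebrain markers summed to 209, 442 and 237 CPM and 227, 444 and 334 CPM, and the 5 choroid plexus markers to 28.1, 2.91 and 45.6 CPM and 54.4, 4.67 and 6.23 CPM. The brain libraries thus differed in cerebellar, brainstem and forebrain markers within each genotype. The part of tissue composition in the Hox values was not tested.

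**Figure D4:**
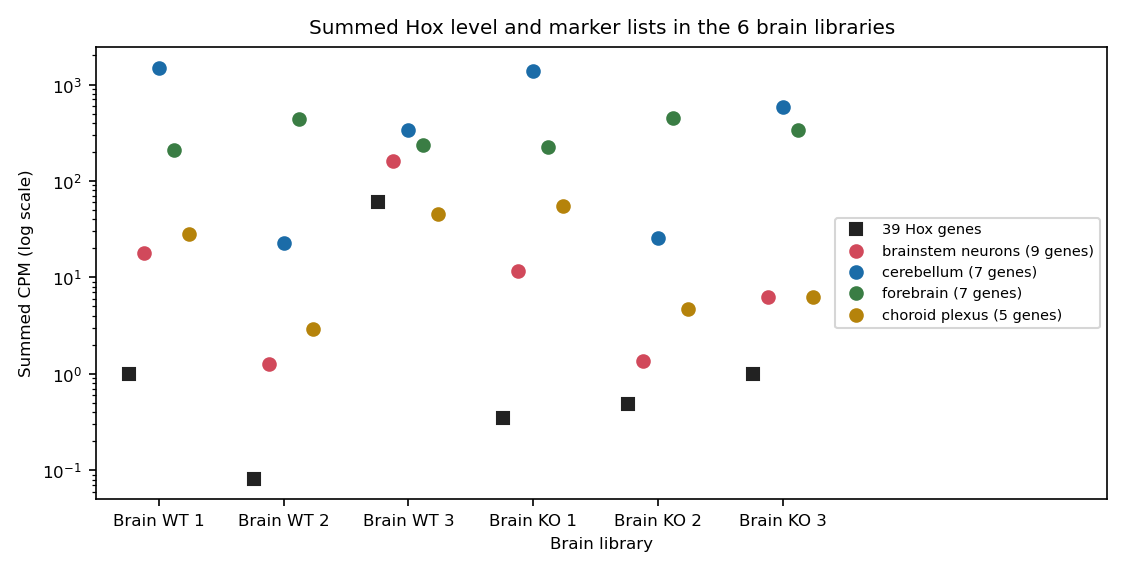
Summed CPM (log axis) of the 39 Hox genes (black squares) and of 4 marker lists (coloured points) in the 6 brain libraries. Hox genes and brainstem markers are both highest in wild-type brain replicate 3, at 60.9 and 162 CPM, while cerebellar and forebrain markers are highest in other libraries.

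In liver, marker lists of the cell types the tissue could hold were compared across libraries. Hepatic stellate cell markers, 5 genes, summed to 229 to 324 CPM (Reln, which had 94.9 to 324 CPM in brain, gave 174 to 251 CPM of this), endothelial markers, 7 genes, to 368 to 460 CPM with the maximum in knockout replicate 1, and markers of meninges and fibroblasts, 5 genes, to 198 to 260 CPM. Kupffer cell markers, 4 genes, summed to 126 to 330 CPM with the maximum in knockout replicate 2, and cholangiocyte markers, 4 genes, to 8.97 to 23.5 CPM with the maximum in knockout replicate 1. The Hox sum was highest in knockout replicate 1, where the endothelial list was close to its value of 449 CPM in wild-type replicate 3. Hepatocyte markers, 4 genes, summed to 56890 to 92420 CPM with the minimum in knockout replicate 2. Markers of lymphocytes and blood cells, 6 genes, summed to 47.9, 35.6 and 41.5 CPM in wild-type liver and 72.3, 72.4 and 53.5 CPM in knockout liver. Which of these cells carry the Hox RNA was not tested.

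To ask whether the loss of Vaultrc5 changed Hox expression, the genotypes were first compared within liver. Wild-type libraries had Hox sums of 8.78, 6.58 and 8.07 CPM, a mean of 7.81 ± 1.13 (SD, n = 3). Knockout libraries had sums of 10.9, 9.58 and 7.795 CPM, a mean of 9.44 ± 1.58. The groups overlapped. Of the 39 genes, 6 had enough counts for the edgeR quasi-likelihood test (Hoxa3, Hoxa5, Hoxb2, Hoxb3, Hoxb4 and Hoxb5), and 0 had a Benjamini-Hochberg adjusted p under 0.05, against 0.0% of all 15329 genes tested. At an unadjusted p under 0.05 there were 0 of the 6, against 3.5% of all genes, and the DESeq2 Wald test called 0 of 12 Hox genes tested, against 0.0528% of all genes. Non-overlapping levels in the 3 knockout and 3 wild-type libraries were found for 0 Hox genes, against 7.8% of all genes with a count in liver.

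The 3 tested genes with the smallest p in liver were Hoxb2, Hoxa3 and Hoxb4. Hoxb2 had a log2 fold change of 0.57 ± 0.44 (SE) in knockout against wild type, with an edgeR unadjusted p of 0.232 and an adjusted p of 0.992. For Hoxa3 the log2 fold change was 0.22 ± 0.30 (edgeR unadjusted p = 0.480), and for Hoxb4 it was 0.23 ± 0.34 (edgeR unadjusted p = 0.513), both with an adjusted p of 0.992. Over the alternatives tried, the adjusted p ranged from 0.704 to 1.0 for Hoxb2 and from 0.721 to 1.0 for Hoxb4. The Hoxb2 change ranged from 0.19 without knockout liver replicate 1 to 0.84 without knockout liver replicate 3. The Hoxb4 change was 0.23 with all libraries and -0.05 without knockout liver replicate 2.

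In brain, the comparison of genotypes rested on wild-type replicate 3. The mean Hox sum was 20.7 ± 34.9 CPM (SD, n = 3) without the deletion and 0.608 ± 0.341 CPM with it, a log2 ratio of -5.09, which became 0.19 without wild-type brain replicate 3. No Hox gene passed the filter on low counts, which asked for enough counts in 3 libraries, so that 0 of the 39 were tested, and 0.0% of the 18075 genes tested had an edgeR adjusted p under 0.05 (0.675% at an unadjusted p under 0.05). Without the filter, 23 Hox genes were tested by edgeR and 0 had an adjusted p under 0.05, against 0.0% of all genes. At an unadjusted p under 0.05 there was 1 of the 23, against 0.941% of all genes. That gene was Hoxa2, with 5.30, 0 and 16 counts in wild-type brain and 0 in each knockout library, lower in the knockout with an edgeR unadjusted p of 0.036 and an adjusted p of 1.00. Without wild-type brain replicate 3 its edgeR unadjusted p was 0.103, and 0 of 17 Hox genes had an unadjusted p under 0.05, against 0.642% of all genes. The DESeq2 Wald test called 0 of 18 Hox genes, against 0.0% of all genes, and gave no p for Hoxa5, Hoxb3, Hoxb5, Hoxb8 and Hoxc4. By it 2 of the 18, Hoxa2 and Hoxc5, had an unadjusted p under 0.05, against 0.489% of all genes, and 0 of 17 without wild-type brain replicate 3, against 0.367%. Without that library it called 0 of 17 at the adjusted threshold, against 0.03% of all genes. In the edgeR fit on all 12 libraries 0 of 6 Hox genes were called and 5 of the 6 (Hoxa3, Hoxa5, Hoxb2, Hoxb3 and Hoxb5) had an unadjusted p under 0.05, all lower in knockout brain, against 1.39% of all genes. Without wild-type brain replicate 3 there were 0 of the 6, against 1.13%. Non-overlapping levels in the 3 knockout and 3 wild-type brain libraries were found for 0 Hox genes, against 4.48% of all genes with a count in brain.

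The difference of the knockout effect between tissues was then tested on all 12 libraries. Of 6 Hox genes tested, 0 had an edgeR adjusted p under 0.05, against 0.0% of all 20141 genes. At an unadjusted p under 0.05 there were 5 of the 6 (Hoxa3, Hoxa5, Hoxb2, Hoxb3 and Hoxb5), against 2.43% of all genes. For each of the 5, the log2 fold change in liver minus that in brain was above 0. Their mean levels were lower in knockout than in wild-type brain. Without wild-type brain replicate 3 there were 0 of the 6 at an unadjusted p under 0.05, against 1.85% of all genes.

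Brain and liver were compared within each genotype, which uses separate libraries for the wild type and the knockout. In the knockout, Hoxb4, Hoxb3 and Hoxa3 were lower in brain than in liver. The levels of Hoxb4 were 15.4-fold higher in knockout liver than in knockout brain (95% counting interval 8.35 to 31.5), from 142 against 11 counts. Hoxb3 was 25.6-fold higher (9.66 to 96.2), from 86 against 4 counts, and Hoxa3 was at least 7.41-fold higher, with 0 counts in brain set at 3 per library. Knockout brain replicate 3 held all 4 brain counts of Hoxb3 and 7 of the 11 of Hoxb4. Without it Hoxb3 was at least 11.2-fold higher in liver and Hoxb4 27.9-fold (10.7 to 104). By the edgeR test the log2 fold change, brain against liver, was -3.91 ± 0.71 (SE) for Hoxb4, with an adjusted p of 0.00140, and -4.55 ± 0.79 for Hoxb3, with an adjusted p of 0.00116. For Hoxa3 the edgeR adjusted p was 0.000271. These 3 were the Hox genes tested and all 3 were called lower in brain, as were 35.2% of the 18785 genes tested (78.7% were called in either direction). Since they passed the filter through their liver counts, their number is no support by itself.

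Without the filter, 9 of 22 Hox genes tested in the knockout were called lower in brain by edgeR, against 22.7% of all genes. They included Hoxa2 to Hoxa5 and Hoxb2 to Hoxb5. The DESeq2 Wald test called 9 of 14, against 28.0% of all genes lower in brain. In the edgeR set of 9 genes all 3 knockout liver libraries lay above all 3 knockout brain libraries. As the set was called on these same libraries, this is a description and no further support. Hoxa5 was 27.4-fold higher in knockout liver (95% counting interval 7.17 to 233) and Hoxb5 28.0-fold (7.34 to 238). Hoxb2, with 0 counts in knockout brain, was at least 5.62-fold higher in liver, Hoxa4 at least 3.27-fold and Hoxa2 at least 2.79-fold. Counts per library total in place of TMM gave smaller ratios in the same direction, such as 8.47-fold for Hoxb4 and at least 1.53-fold for Hoxa2. Brain against liver in the knockout, the median change over all genes was 0.21 (log2) with TMM and 1.08 with library totals, and the called genes split into 8178 higher and 6611 lower in brain with TMM and into 11668 and 3871 with library totals.

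In the wild type, the same comparison gave no call with all 6 libraries. Of 4 Hox genes tested by edgeR, 0 were called at the adjusted threshold, against 78.6% of all 18850 genes, or 34.7% counting those lower in brain. At an unadjusted p under 0.05 there were again 0, against 79.8% of all genes. Of the 15 Hox genes given an adjusted p by the DESeq2 Wald test, 1, Hoxc5, was called, and it was higher in brain. Of all genes, 63.2% were called in either direction and 27.2% lower in brain. Hoxc5 had 1, 0 and 35 counts in wild-type brain and 0 in liver, and without wild-type brain replicate 3 it had an unadjusted p of 0.799 by that Wald test and no adjusted p. Without the filter on low counts edgeR called 0 of 22, against 22.3% of all genes lower in brain. The log2 fold change, brain against liver, was -1.07 ± 1.19 (SE) for Hoxb4, 0.49 ± 1.37 for Hoxb3, 0.12 ± 1.35 for Hoxa3 and 1.02 ± 1.501 for Hoxa5. Without wild-type brain replicate 3, all 4 were called lower in brain, against 32.9% of all genes. These genes had 0 to 2 counts in both remaining brain libraries and passed the filter through their liver counts, so their number is no support by itself. Hoxb4 was then at -5.55 ± 0.77 with an edgeR adjusted p of 0.000718, Hoxb3 at -4.86 ± 0.82, Hoxa3 at -7.22 ± 0.94 and Hoxa5 at -7.21 ± 0.99. The last pair had 0 counts in both remaining brain libraries, so their fitted values are no measured fold. Hoxa3 was at least 6.91-fold and Hoxa5 at least 6.84-fold higher in wild-type liver than in these libraries. With library totals the lower bound was 3.87-fold for each of them. Without the filter and without that library, edgeR called 7 of 17 lower, against 21.8% of all genes, and the DESeq2 Wald test 7 of 10, against 26.7%. With the replicate number as a block and all 6 libraries, the Hoxa3 and Hoxb3 values were -1.33 and -1.20, of the opposite sign to those without the block.

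**Figure D5:**
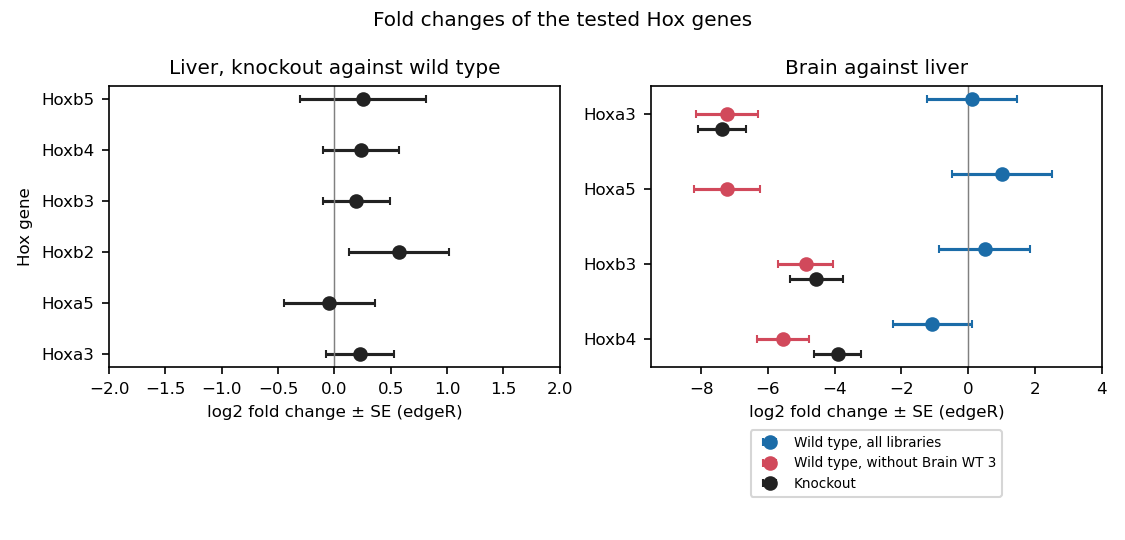
Log2 fold changes with SE from edgeR for the Hox genes tested, in liver for knockout against wild type (left) and for brain against liver (right) in the wild type with all libraries (blue), the wild type without brain replicate 3 (red) and the knockout (black). Values in the left panel lie within 0.6 of 0, and on the right the red and black points lie at -3.91 or below.

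With all 12 libraries, every liver library was above every brain library for 0 of the 26 Hox genes with a count, against 20.7% of the 32966 genes with a count. Without wild-type brain replicate 3, which was left out for its high Hox counts, this was so for 8 of the 26 (including Hoxa3, Hoxa4, Hoxa5, Hoxb2, Hoxb3, Hoxb4 and Hoxb5), against 21.1% of all genes with a count, and as a selection by the outcome it is a description. The same 8 genes were found with library totals. As ratios of summed counts per library size, the liver level was 20.7 times that of the 5 brain libraries for Hoxb4 (95% counting interval 11.9 to 39.4), 27.5 times for Hoxb3 (12.4 to 75.9) and 48.2 times for Hoxa5 (13 to 404). With library totals these ratios were 11.5, 15.3 and 26.85. Hoxa3 had 0 counts in these 5 libraries and was at least 7.11-fold higher in liver, or at least 3.95-fold with library totals.

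The cofactors with which Hox proteins bind DNA were expressed in both tissues. Of 9 TALE genes, all tested, 6 were called higher and 1 lower in wild-type brain than in wild-type liver, and 7 and 1 in the knockout. Of all genes, 43.9% were called higher and 34.7% lower in wild-type brain, or 78.6% in either direction, and 43.5% and 35.2% in the knockout. With library totals the TALE split was 8 higher and 0 lower in either genotype, beside 61.7% and 21.2% of all genes in wild-type and 62.1% and 20.6% in knockout libraries. The median log2 fold change of the list was 1.95 in the wild type, beside 0.21 for all genes tested. Among the genes higher in wild-type brain, the log2 fold change by edgeR was 4.82 ± 0.30 (SE) for Pknox2, 4.38 ± 0.25 for Meis3 and 2.15 ± 0.29 for Meis2. Pknox1 was lower by -0.59 ± 0.15 with TMM but at 0.25 with library totals. Meis1 differed between the brain libraries more than between tissues, with 44.7, 3.06 and 20.6 CPM in wild-type brain and 8.78, 12 and 9.70 CPM in wild-type liver.

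Among genes of retinoic acid signalling and other upstream regulators, 19 were listed and 13 tested in the wild type, of which 3 were called higher and 5 lower in brain, against 43.9% and 34.7% of all genes. The split turned with the scaling, to 7 higher and 5 lower with library totals in either genotype, beside 61.7% and 21.2% of all genes in wild-type and 62.1% and 20.6% in knockout libraries on that scale. The receptor genes Rxra (log2 fold change -4.69 ± 0.17, SE) and Rara (-1.70 ± 0.22) were lower in brain, as were Aldh1a1 (-4.74 ± 0.41), which makes retinoic acid, and Cyp26a1 (-6.39 ± 0.59, with 1, 5 and 1 counts in wild-type brain), which degrades it. Aldh1a2 (3.74 ± 0.36), a further enzyme of retinoic acid synthesis, and Egr2 (6.08 ± 0.77, with 7, 2 and 0 counts in wild-type liver), a hindbrain segmentation gene, were higher in brain. Crabp2, a retinoic acid binding protein gene, was called higher in brain, with 13, 31 and 26 counts in wild-type brain and 0 in each liver library. In the knockout 3 genes were called higher and 6 lower of 14 tested, against 43.5% and 35.2% of all genes.

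Of 16 Polycomb genes, all tested, 7 were called higher and 3 lower in wild-type brain, against 43.9% and 34.7% of all genes, and 10 and 4 in the knockout, against 43.5% and 35.2%. Cbx6 (4.84 ± 0.14, SE) and Phc1 (3.35 ± 0.15), both subunits of Polycomb repressive complex 1, had the largest log2 fold changes towards brain, followed by Cbx7 (1.41 ± 0.21), and Cbx2 (-2.21 ± 0.25), a further subunit, was lower there. The split moved with the scaling, to 14 higher and 1 lower in either genotype with library totals (all genes 61.7% and 21.2% in wild-type, 62.1% and 20.6% in knockout libraries), where Suz12 turned from -0.41 to 0.43 in the wild type. Of 8 Trithorax and H3K27 demethylase genes, 2 were higher and 2 lower in wild-type brain with TMM, against 43.9% and 34.7% of all genes, and 6 and 0 with library totals, against 61.7% and 21.2%. Kmt2a (1.24 ± 0.11, SE) and Men1 (0.26 ± 0.10), which act in 1 complex, were higher, and Wdr5 (-1.10 ± 0.12) and Kdm6b (-0.62 ± 0.21), an H3K27 demethylase gene, were lower. With library totals Kdm6b was at 0.23 and Wdr5 at -0.27.

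None of these 4 lists had a gene called by edgeR in knockout against wild type in brain or liver or in the difference between tissues, where 0.0% of all genes were called. The list medians of the knockout effect were 0.06 for TALE, 0.01 for retinoic acid, 0.06 for Polycomb and 0.06 for Trithorax genes in brain, beside -0.01 for all genes. In liver they were 0.04, -0.04, -0.01 and -0.05, beside 0.01 for all genes.

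The other genes annotated inside the clusters had few counts, found mostly in wild-type brain replicate 3 and, for Hoxa and Hoxb, in liver. Within Hoxa there were 20, of which 10 had a count, with a sum of 75 counts in wild-type brain replicate 3, at most 4.70 in the other 5 brain libraries and 21 to 26 in liver. Hoxaas2, an antisense transcript, had 3, 0 and 32 counts in wild-type brain, 1, 0 and 0 in knockout brain, 5, 3 and 3 in wild-type liver and 5, 3 and 6 in knockout liver. Hoxb3os had 2, 0 and 19 counts in wild-type brain, 0, 0 and 1 in knockout brain, 7, 13 and 13 in wild-type liver and 14, 10 and 12 in knockout liver. Wild-type brain replicate 3 had the highest count of both. For Hoxb3os the liver libraries lay above the other 5 brain libraries, and for Hoxaas2 the lowest liver counts equalled that of wild-type brain replicate 1. Hotairm1, a noncoding gene, had 12.2 counts in wild-type brain replicate 3, 0 or 1 in the other 5 brain libraries and 2 to 6 in liver. Within Hoxc, 7 other genes, Hotair among them, had 0 counts in all libraries, and within Hoxd, 10 other genes summed to 19.5 counts in wild-type brain replicate 3 and 0 in each liver library. Of the 19 listed noncoding and Evx genes, 18 were in the table and 1 was tested in the wild-type tissue comparison, Hoxb3os, which was not called (-0.93 ± 0.99, SE, edgeR adjusted p = 0.413).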

How the data were processed

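Total RNA was sequenced from brain and liver with a stranded, ribosomal RNA depleted kit and single-end reads, per the labels' protocols. The values deposited by the authors are expected counts, unscaled, for each gene in each library. The submitters' processing notes name cutadapt, STAR and the mm10 build, and the counting tool is not given in the sources used here. Between 5.06% and 5.71% of values per library were not whole. All 55450 identifiers matched GENCODE M21. Groups and replicate numbers came from the titles.

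Counts were rounded and tested with edgeR 4.0.16 (R 4.3.3; TMM, filterByExpr with a minimum count of 10 and minimum total of 15, robust quasi-likelihood F-test) on all genes of the groups compared, with Benjamini-Hochberg adjustment and a threshold of 0.05. SE is the absolute log2 fold change over the square root of F. Levels of different genes were compared per kb of merged exons. Counting intervals of ratios are exact 95% intervals of summed counts. No replicate pair agreed within sampling noise (chi-square over degrees of freedom 27.2 to 228). Sums over genes were not tested. Same-numbered knockout and wild-type liver libraries deviated together (correlations 0.31, 0.33 and 0.38), brain ones not in every pair (0.64, 0.62 and -0.01). The labels do not say what the numbers mark. The main tests left the numbers out, and the replicate block was an alternative. The fit was tried on simulated counts with the same spread for all genes and changes in higher-count genes only. This trial does not cover counts as low as those of most Hox genes, or a library that stands apart.

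Alternatives were DESeq2 size factors, library totals, the DESeq2 1.42.0 Wald test, no filter, a mean of 1 CPM, robust estimation off, a threshold of 0.1, 12 libraries in one fit, the replicate block and each replicate left out. The plan was to name every called Hox gene, the 3 smallest p in each knockout comparison and up to 4 called genes per list. More called genes were named for the retinoic acid and Polycomb lists, and not every called Hox gene is named. The Hox genes, lists and rules were chosen with earlier results of these data known. Values of some single genes are not reported here.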

Additional observations from a re-analysis of the deposited data

How the results depend on the processing

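Wild-type brain replicate 3 decided most Hox results of brain. In the wild-type tissue comparison, 0 genes were called with all libraries, 0 to 4 with each replicate left out, 1 with DESeq2, and without that library 7 both with no filter and with DESeq2 (alternatives chosen after seeing the data). The log2 fold change there ranged from -7.22 to 0.67 for Hoxa3, from -4.86 to 1.04 for Hoxb3 and from -5.55 to -0.52 for Hoxb4 when each replicate was left out. Without wild-type liver replicate 2, Hoxa3 was at -0.01. Without wild-type brain replicate 3, Hoxa3, Hoxb3 and Hoxb4 were at -7.21, -4.85 and -5.53 with no filter and -6.79, -5.00 and -5.68 with DESeq2. With the replicate block they were -1.33 for Hoxa3 and -1.20 for Hoxb3. The block changed no call, with 0 Hox genes called in liver and in brain between genotypes.

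In the knockout tissue comparison, 3 genes were called with all libraries, 9 without the filter, 9 with DESeq2, 1 with a mean of at least 1 CPM (1 gene tested) and 3 to 6 with each replicate left out (6 without any one of the knockout brain libraries, 5 without knockout liver replicate 2); the numbers tested changed with these settings. Hoxb4 in liver, knockout against wild type, ranged from -0.05 to 0.48. The log2 ratio of the Hox sum ranged from -5.67 to 0.19 in brain and from 0.15 to 0.39 in liver.

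Genes with at least 3 counts in every library numbered 0 in wild-type brain (21 in at least 1 library, 0 to 3 with each replicate left out), 0 in knockout brain (5 and 0 to 1), 8 in wild-type liver and 10 in knockout liver (4 in each at 10 counts). Of the other values, 122 fold changes kept direction and call, and 109 counts and sums stayed within 1.5 times (counts) or 1 SD (sums); 11 of these counts had 0 Hox genes tested and could not move. Between genotypes 6 of the 39 genes were tested in liver and 0 in brain, and 13 had no count in any library, for which no change could be measured.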

Other observations

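The homeobox genes Evx1 and Evx2, which adjoin Hoxa and Hoxd, were highest in wild-type brain replicate 3. Evx1 had 7 counts there and 0 in the other 11 libraries, and Evx2 had 12 counts there, 0 to 4 in the other 5 brain libraries and 0 in liver. The nearest named protein-coding genes beyond the Hox and Evx genes, chosen by position after the Hox values were seen, lay in that library inside the range of the other 5 brain libraries for 4 genes and outside it for 4. Lnpk, 88.9 kb from Hoxd, had 52.6 CPM there and 47.8 to 61.4 CPM in the other 5 brain libraries, and Mtx2, 60.7 kb to the other side of Hoxd, had 15.8 CPM and 13.5 to 16.0 CPM. Hibadh, beyond Hoxa, had 29.4 CPM there against 23.0 to 33.4 CPM, and Smug1, beyond Hoxc, had 9.44 against 8.69 to 10.2 CPM. Skap2, on the other side of Hoxa, was above the range, at 13.4 CPM against 8.26 to 10.2 CPM. Ttll6 and Skap1, which flank Hoxb, were slightly above their ranges, at 0.726 against 0 to 0.661 CPM and at 1.28 against 0.296 to 1.19 CPM, and Calcoco1, next to Hoxc, was slightly below, at 39.5 against 40.3 to 48.1 CPM.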
